A study of Populus trichocarpa with 18 samples.

Results

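Region 3 was compared with Region 1 in normal wood of Populus trichocarpa, the black cottonwood. Both are bands of stem differentiating xylem, the tissue in which new wood cells build their walls. The comparison takes the Region 3 and Region 1 columns of the normal wood count table, matched by biological replicate, and covers all 6763 genes listed there, of 11294 in either table of the series. It uses 6 of the 18 libraries, 3 of each region. All trees were wild type, 5 to 12 months old, grown from branch cuttings in a glasshouse or growth chamber. Debarked stem segments were cut into sections 16 µm thick, and a laser cut 5 regions, of which Regions 1, 2 and 3 were kept. About 1600000 µm2 of tissue per region was pooled into 1 biological replicate. Tension wood, used here only for comparison, came from stems bent for 21 days. Whether normal wood came from unbent trees, how many trees a pool held and which region lay nearer to the cambium are not given in the sources used here.

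Wood cells arise from the cambium, expand within a thin primary wall and then deposit a thick secondary wall of cellulose, xylan and lignin. Rosettes of cellulose synthases in the plasma membrane spin the cellulose, sucrose synthase can feed them with UDP-glucose, and glycosyltransferases in the Golgi build xylan. Monolignols, made from phenylalanine in the cytosol, are exported and coupled into lignin with the help of laccases. Fibres and vessels finish by programmed cell death, so bands taken at different depths of the xylem can hold cells at different steps of this series. In pooled bands, fewer cells of a type and less RNA per cell cannot be told apart.

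Both regions were shallow, and Region 3 was the shallower one in each replicate. Totals in Region 1 were 13504, 11442 and 11275 counts in replicates 1, 2 and 3, a mean of 12074 ± 1242 (SD, n = 3). In Region 3 they were 9848, 8043 and 6254 counts, a mean of 8048 ± 1797 (SD, n = 3), so the regions did not overlap in depth. A floor of 3 counts is 222 CPM (counts per 1000000 counts in that library) in the deepest of these libraries and 480 CPM in the shallowest, and it covers counting error only. No pair of normal libraries held identical values. Median distances within a region and between Regions 1 and 3 were similar. The chi-square per degree of freedom was 2.57 (pairs within Region 1 or within Region 3) against 2.56, where 1 is counting noise alone. Replicate 3 of Region 3, the shallowest library, was at 3.05 and 3.14 from replicates 1 and 2 of its region. Those 2 were at 2.37 from each other.

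The regions shared many of the genes that carried most counts, but the sharing between libraries of 1 region was not measured. Of the 10 genes with the most counts in Region 1, 6 were among the 10 with the most in Region 3, and of the 50 with the most counts 35 were shared. The Spearman correlation across the listed genes had a median of 0.506 between Region 1 libraries, 0.544 between Region 3 libraries and 0.522 between the regions. Genes are no independent replicates, and most were counted only a few times.

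Most genes were too sparse to compare. Region 1 held 4286 genes with at least 1 count and Region 3 held 3219, and 2222 genes were counted in both. A further 1480 genes of the table had no count in either region and were counted in Region 2 alone. Of the genes seen in these 6 libraries, 4205 had fewer than 10 counts in all and 2193 had a single count. With every library thinned to 6254 counts, Region 1 held 3187 genes and Region 3 held 2902. In all, 61 genes were counted in each Region 1 library and in no Region 3 library, and 8 the other way round, in unthinned libraries that differed in depth.

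In Region 1, 2064 genes were counted that had no count in Region 3, and 997 the other way round. Such genes took 9.31% of the counts of Region 1 and 5.44% of those of Region 3. These values are from unthinned libraries, and Region 1 was deeper. With every library thinned to 6254 counts, 1372 genes were in Region 1 and not in Region 3, and 1087 the other way round. The gene with the most counts in Region 1 and none in Region 3 was Potri.009G152800.v4.1, with 4, 5 and 4 counts in replicates 1, 2 and 3. Its counterpart in Region 3 was Potri.005G208500.v4.1, with 20 counts, 18 of which were in replicate 3. Both were chosen after their values were seen, and neither passed the filter of the test. The second of them therefore rests on 1 library.

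The test of the regions asks which genes differ in level between these bands of normal xylem. Of 318 genes with enough counts to be tested, 1 was called, which is 0.314% (edgeR quasi-likelihood test with the biological replicate as a block, Benjamini-Hochberg adjusted p under 0.05). It was lower in Region 3, and no gene was called higher. At an unadjusted p under 0.05 there were 27 genes (8.49%), 15 higher and 12 lower in Region 3, and DESeq2 called 0. The next smallest adjusted p was 0.482. The genes tested are 4.70% of those listed and held between 52.1% and 57.0% of the counts of each library.

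The called gene was Potri.016G104300.v4.1, which no source used here pairs with a name. It was the fifth most abundant of the tested genes. In Region 1 it had 72, 96 and 112 counts in replicates 1, 2 and 3, which are 5332, 8390 and 9933 CPM. In Region 3 it had 43, 30 and 27 counts, which are 4366, 3730 and 4317 CPM. Every Region 3 library thus lay below every Region 1 library, with the smallest step in replicate 1. The means were 7885 ± 2342 CPM in Region 1 and 4138 ± 354 CPM in Region 3 (SD, n = 3). The log2 fold change was -0.94 (SE 0.24, 95% interval -1.41 to -0.47, edgeR adjusted p = 0.043), and the level was lower in 3 of 3 replicates. Region 2 lay between them at 5310 ± 898 CPM (SD, n = 3), and its log2 values against its neighbours, -0.60 from Region 1 to 2 and -0.34 from Region 2 to 3, were not called (edgeR adjusted p = 0.830 and 0.731).

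This call was narrow. It was lost without replicate 2 (edgeR adjusted p = 0.594), without replicate 3 (0.483), without the replicate block (0.357), with only the 6 libraries of Regions 1 and 3 (0.638) and in DESeq2 (0.533), with log2 fold changes between -0.98 and -0.78 in those 5.

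**Figure D1:**
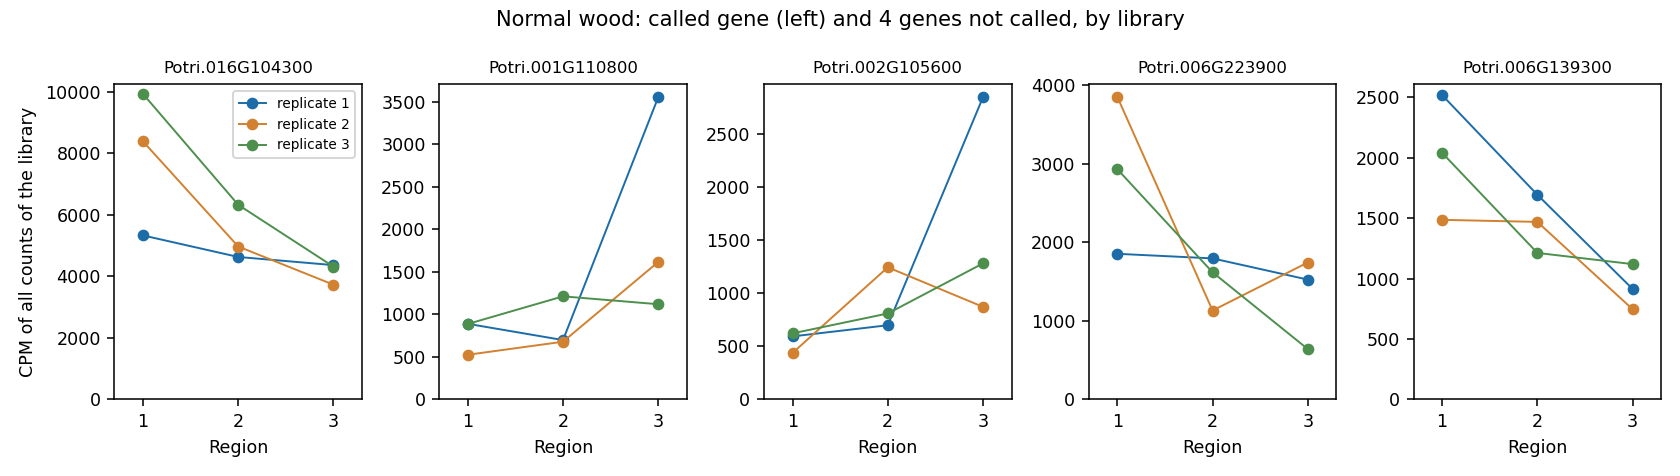
Level of the called gene (left) and of 4 genes that were not called, in CPM of all counts of the library (y axis, from 0), in Regions 1, 2 and 3 of normal wood (x axis); each line joins the libraries of 1 biological replicate. Potri.016G104300 is at 5332 to 9933 CPM in Region 1 and at 3730 to 4366 CPM in Region 3, while the high Region 3 values of the next 2 genes come mostly from replicate 1.

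The genes that followed by p, among those that moved the same way in all 3 replicates, were not called. Potri.001G110800.v4.1 had 12, 6 and 10 counts in Region 1 and 35, 13 and 7 in Region 3 (replicates 1, 2 and 3). In CPM it was at 767 ± 210 and 2097 ± 1286 (SD, n = 3), with replicate 1 far above the others in Region 3. Its log2 fold change was 1.38 (SE 0.47, edgeR adjusted p = 0.482). Potri.002G105600.v4.1 had 8, 5 and 7 counts in Region 1 and 28, 7 and 8 in Region 3, with a log2 fold change of 1.50 (SE 0.52, edgeR adjusted p = 0.482). Here too replicate 1 held most of the Region 3 counts.

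On the lower side, Potri.006G223900.v4.1 had 25, 44 and 33 counts in Region 1 and 15, 14 and 4 in Region 3. The change was -1.16 on the log2 scale (SE 0.42, edgeR adjusted p = 0.482). Potri.006G139300.v4.1 had 34, 17 and 23 counts in Region 1 and 9, 6 and 7 in Region 3. Its means were 2014 ± 516 and 926 ± 187 CPM (SD, n = 3), and the change was -1.19 on the log2 scale (SE 0.46, edgeR adjusted p = 0.482). In both genes every Region 3 library lay below every Region 1 library. That pattern was common: 40 of the 318 genes (12.6%) had regions that did not overlap, 22 higher and 18 lower (5.66%) in Region 3.

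Across all tested genes the change was centred near 0. The median log2 fold change was 0.03, the middle 50% of genes lay between -0.39 and 0.38, and the extremes were -1.51 and 1.50. There were 11 genes above 1 and 12 below -1. The SE had a median of 0.46, and the 95% interval reached a median of 0.91 to either side. The interval of 62 genes (19.5%) lay wholly within a change of 1 on the log2 scale, and that of the other 256 did not. For most genes a change of that size was therefore neither detected nor outside the interval. By TMM-scaled counts, 53 genes (16.7%) were higher and 40 (12.6%) lower in all 3 replicates.

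**Figure D2:**
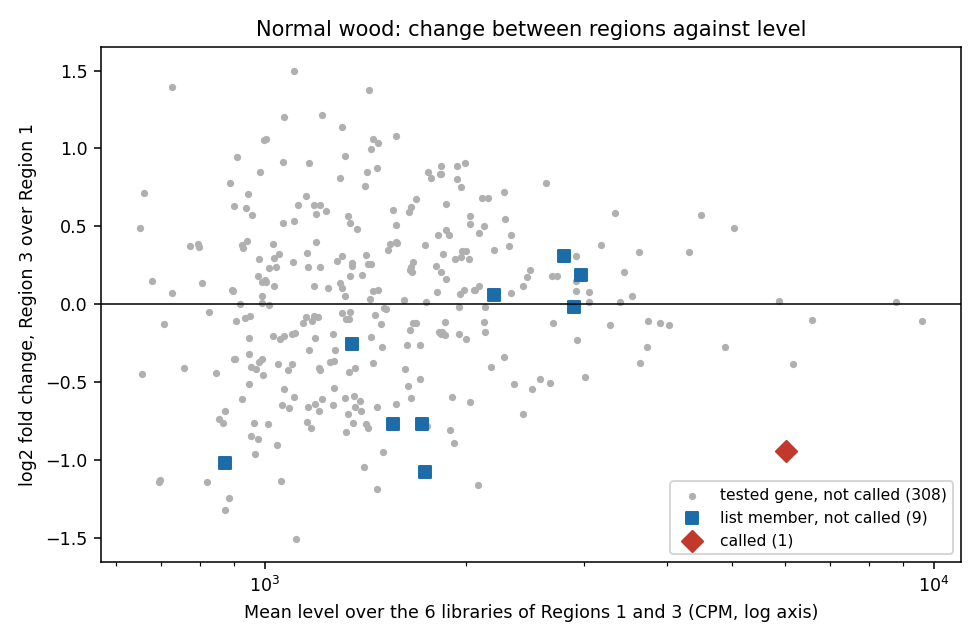
Log2 fold change of Region 3 over Region 1 (y axis) against the mean CPM of the 6 libraries (x axis, log scale) for the 318 tested genes of normal wood. The called gene (red diamond) lies at -0.94 among the most abundant genes, and the 9 tested list members (blue squares) lie between -1.08 and 0.31.

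The files pair no identifier with a gene name, and the reference table matched 0 of the 11294 identifiers. Wall-forming genes were therefore followed through 14 lists of 102 poplar identifiers recalled from published gene models, whose membership was not checked against an annotation. Of these identifiers, 63 (61.8%) are listed in normal wood and 9 reached the test. None of the 9 was called, against 0.314% of all genes tested. Of the 9, 3 had a log2 value above 0 and 6 below, with a median of -0.26 against 0.03 over all genes. By TMM-scaled counts, 1 was higher and 4 were lower in all 3 replicates. In CPM, the 1 higher member was slightly lower in replicate 3. In 0 of the 9 did the regions not overlap, against 12.6% of all tested genes. With the minimum count lowered to 3, 29 list members and 849 genes were tested, and 0 were called (53 genes with an unadjusted p under 0.05).

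The xylem label was checked against the list of secondary wall cellulose synthases, the enzymes that make the cellulose of thickened walls. All 5 identifiers had at least 1 count in Region 1 and in Region 3. In Region 3, Potri.018G103900.v4.1 had only 1 count and Potri.006G181900.v4.1 had 3, all in replicate 1. Markers of phloem, dividing cambium and expanding xylem were at or near 0. The phloem identifier and that for expanding xylem are not listed in normal wood. The 4 identifiers for dividing cambium had 0 counts in Region 1 and 1 count in Region 3 together. Primary wall cellulose synthases, which act in cells that still expand, had 5 counts in Region 1 and 3 in Region 3 over 10 identifiers. These levels are under the floor of 3 counts per library in both regions, so no difference in these markers was detectable at this depth. Identifiers of the cell death zone, also set as markers of a neighbouring zone, were counted. That list had 30 counts in Region 1 and 18 in Region 3 and is described below.

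Secondary wall cellulose synthases took 0.267%, 0.218% and 0.231% of the counts of Region 1 in replicates 1, 2 and 3. In Region 3 they took 0.244%, 0.075% and 0.160%. The share was lower in Region 3 in each replicate, the regions overlapped, and replicates of Region 3 differed more from each other than the means of the regions did. Means were 0.239% ± 0.025 and 0.159% ± 0.085 (SD, n = 3), from 87 and 40 counts. The member tested, Potri.002G257900.v4.1, had 24, 6 and 13 counts in Region 1 and 8, 4 and 3 in Region 3. Its log2 fold change was -1.02 (SE 0.61, edgeR adjusted p = 0.537). The other 4 members were not tested. Potri.004G059600.v4.1 had 21 counts in Region 1 and 13 in Region 3, Potri.006G181900.v4.1 had 11 and 3, and Potri.018G103900.v4.1 had 4 and 1. Potri.011G069600.v4.1 had 8 counts in each region, 5 of those in Region 3 from replicate 3.

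Sucrose synthases, which split sucrose to UDP-glucose, the substrate of cellulose synthesis, had a lower share of counts in Region 3 in each replicate. It was 0.148%, 0.227% and 0.177% in Region 1 and 0.132%, 0.162% and 0.144% in Region 3, and the regions overlapped. Means were 0.184% ± 0.040 and 0.146% ± 0.015 (SD, n = 3), a log2 ratio of -0.34 with an SD over replicates of 0.16. Its tested member, Potri.006G136700.v4.1, had 17, 18 and 17 counts in Region 1 and 11, 11 and 8 in Region 3. The log2 fold change was -0.26 with a 95% interval of -1.15 to 0.64 (edgeR adjusted p = 0.858). Potri.018G063500.v4.1, which was not tested, had 14 counts in Region 1 and 5 in Region 3.

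Cellulose synthesis accessory proteins, which act beside the synthases in wall formation, had a lower share of counts in Region 3 in each replicate. It was 0.259%, 0.271% and 0.186% in Region 1 and 0.162%, 0.186% and 0.080% in Region 3. The highest Region 3 value, 0.186% in replicate 2, was level with the lowest of Region 1. Means were 0.239% ± 0.046 and 0.143% ± 0.056 (SD, n = 3). Most of these counts came from Potri.010G141600.v4.1, with 33, 29 and 16 counts in Region 1 and 15, 14 and 4 in Region 3. That gene had a log2 fold change of -0.77 (SE 0.44, edgeR adjusted p = 0.537).

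Fasciclin-like arabinogalactan proteins are cell surface glycoproteins that are abundant in developing xylem, and their members differed from each other. The list as a whole took 0.655% ± 0.127 in Region 1 and 0.608% ± 0.204 in Region 3 (SD, n = 3), higher in 2 replicates and lower in 1. Potri.009G012200.v4.1 had 52, 13 and 24 counts in Region 1 and 12, 9 and 6 in Region 3. In CPM it was at 3851, 1136 and 2129 against 1219, 1119 and 959, so the regions overlapped only through replicate 2 of Region 1. Its log2 fold change was -1.08 (SE 0.45, 95% interval -1.96 to -0.19), which was not called (edgeR adjusted p = 0.482). It was the 1 list member of 9 with an unadjusted p under 0.05, a level reached by 8.49% of the genes tested. Without replicate 1 its log2 value was -0.53 (edgeR adjusted p = 0.909), and without replicate 2 it was -1.52.

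The other tested fasciclin-like member went the other way. Potri.019G123200.v4.1 had 37, 33 and 28 counts in Region 1 and 49, 24 and 11 in Region 3. The log2 fold change was 0.19 (SE 0.35, edgeR adjusted p = 0.870), and in CPM the highest and the lowest of all 6 libraries were replicates 1 and 3 of Region 3. The value turned to -0.16 without replicate 1. Potri.013G151500.v4.1, which was not tested, had 25 counts in Region 1 and 21 in Region 3.

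Monolignol biosynthesis, the supply of lignin precursors, was the largest of the lists, with 570 counts in Region 1 and 315 in Region 3. Its share was 1.58%, 1.35% and 1.80% in Region 1 and 1.29%, 1.37% and 1.25% in Region 3. Replicate 2 was slightly higher in Region 3 and the other replicates were lower, and the regions overlapped. Means were 1.57% ± 0.23 and 1.30% ± 0.061 (SD, n = 3). Of 23 identifiers 21 are listed and 3 were tested.

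The tested monolignol members differed in sign. Potri.001G036900.v4.1 had 43, 12 and 18 counts in Region 1 and 11, 14 and 4 in Region 3, with a log2 fold change of -0.77 (SE 0.46, edgeR adjusted p = 0.537). The value depended on the replicates: it was -0.10 without replicate 1 and -1.47 without replicate 2. Potri.009G099800.v4.1 had 39, 21 and 30 counts in Region 1 and 42, 21 and 16 in Region 3. By TMM-scaled counts with 0.5 added it was higher in 3 of 3 replicates, with a log2 fold change of 0.31 (SE 0.35, edgeR adjusted p = 0.789). In CPM, replicate 3 was slightly lower in Region 3, at 2558 against 2661 in Region 1. Potri.009G095800.v4.1 had 44, 27 and 33 counts in Region 1 and 28, 25 and 18 in Region 3. It was at 2848 ± 454 and 2943 ± 144 CPM (SD, n = 3), a log2 change of -0.02 with a 95% interval of -0.66 to 0.62. For this gene the interval lay within a change of 1 on the log2 scale in either direction.

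Some monolignol counts came from 1 library. Potri.006G033300.v4.1 had 9, 15 and 41 counts in Region 1 and 7, 6 and 5 in Region 3, and Potri.001G304800.v4.1 had 11, 32 and 11 against 5, 8 and 5. The first was high in replicate 3 of Region 1 and the second in replicate 2, and neither passed the filter. With the minimum count of 3, 12 members were tested, of which 3 had log2 values above 0 and 9 below. Their median was -0.47 against -0.03 over all 849 genes, and 0 were called.

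**Figure D3:**
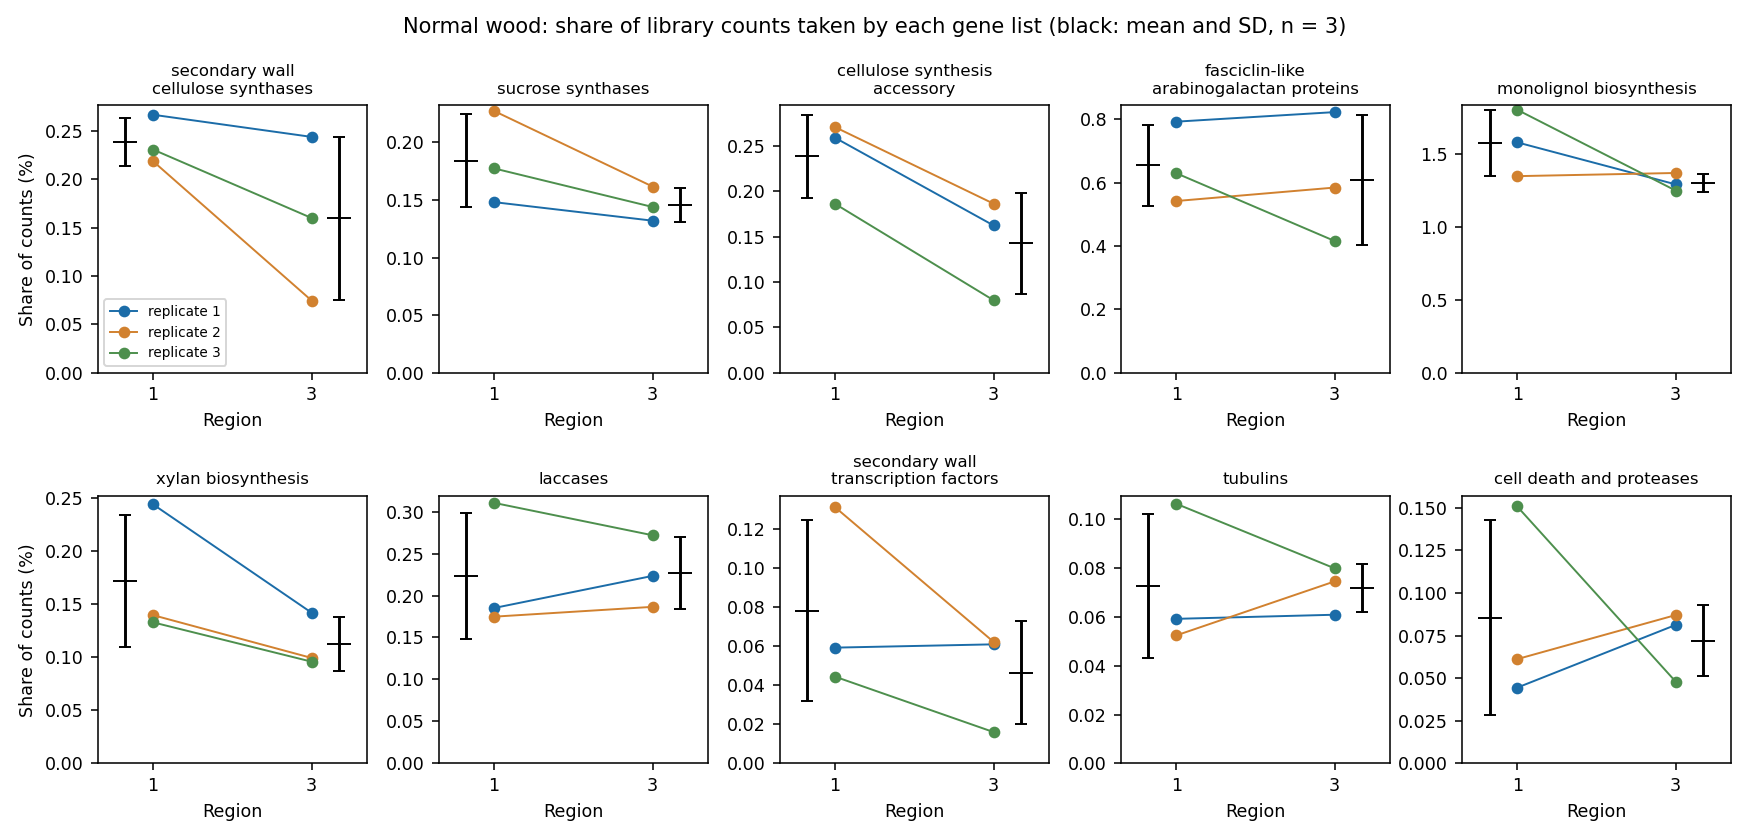
Share of all counts of a library (y axis, percent, from 0) taken by each of the 10 gene lists with at least 30 counts, in Region 1 and Region 3 of normal wood (x axis); coloured lines join the libraries of 1 replicate, and black marks are the mean and SD (n = 3). All 3 lines fall for secondary wall cellulose synthases, sucrose synthases, accessory proteins and xylan, and they cross or diverge for the other lists.

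Xylan biosynthesis, which makes the main hemicellulose of the wood wall, had 64 counts in Region 1 and 28 in Region 3. The share was 0.244%, 0.140% and 0.133% in Region 1 and 0.142%, 0.099% and 0.096% in Region 3. It was lower in each replicate, the regions overlapped, and replicate 1 was the highest in both regions. Means were 0.172% ± 0.062 and 0.113% ± 0.026 (SD, n = 3). None of its 8 listed members was tested. Potri.007G107200.v4.1 and Potri.006G131000.v4.1 held most counts, 25 and 22 in Region 1 and 11 in Region 3 for each.

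Laccases, which oxidise monolignols in the wall, were level between the regions. The list took 0.223% ± 0.075 in Region 1 and 0.227% ± 0.043 in Region 3 (SD, n = 3). Potri.010G193100.v4.1 held most of it, with 23, 20 and 33 counts in Region 1 and 22, 15 and 17 in Region 3. For this gene the log2 fold change was 0.06 with a 95% interval of -0.72 to 0.84 (edgeR adjusted p = 0.951). The tubulin list, for the microtubules that guide cellulose deposition, held 1 identifier, Potri.002G111900.v4.1, with 8, 6 and 12 counts in Region 1 and 6, 6 and 5 in Region 3.

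Regulators of the secondary wall and genes of cell death were near the limit of counting. The list of secondary wall transcription factors, the NAC and MYB switches of wall formation, had 28 counts in Region 1 and 12 in Region 3. Most were from Potri.011G153300.v4.1, with 5, 13 and 4 counts against 3, 5 and 1. Cell death and proteases, the nucleases and proteases of dying xylem cells, had 30 and 18 counts. Nearly all of these were from Potri.005G256000.v4.1, with 6, 6 and 17 counts in Region 1 and 8, 7 and 3 in Region 3. Relative to depth the second list was higher in Region 3 in 2 replicates and lower in 1.

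**Figure D4:**
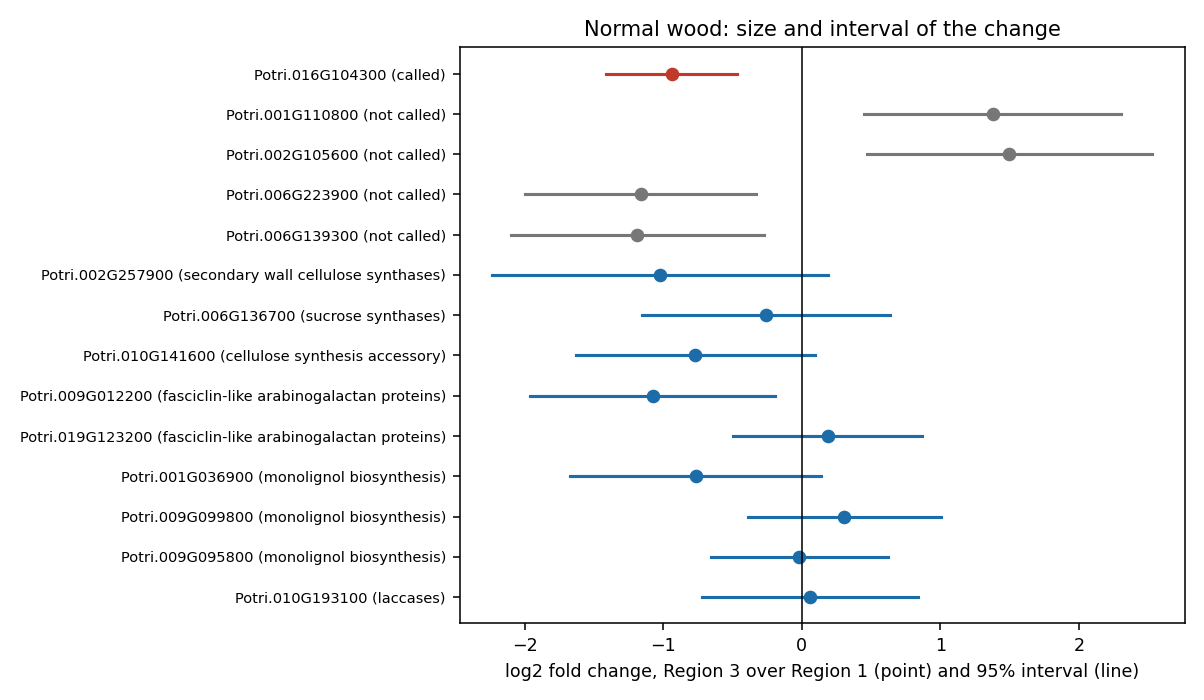
Log2 fold change of Region 3 over Region 1 (points, x axis) with its 95% interval (lines) for the called gene, 4 genes not called and the 9 tested members of gene lists in normal wood. The interval of Potri.016G104300 runs from -1.41 to -0.47, and those of 8 of the 9 list members include 0.

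The mean shares of secondary wall cellulose synthases, accessory proteins, xylan and monolignols were lower in Region 3, which was also shallower in every replicate. Monolignols were lower in 2 of 3 replicates, the others in all 3, and the regions overlapped in each list. Other lists differed. On all counts the log2 ratio of mean shares was -0.34 for sucrose synthases, -0.11 for fasciclin-like proteins (higher in 2 of 3 replicates) and 0.02 for laccases. Thinned to equal depth, the log2 ratio of mean shares was -0.77 for secondary wall cellulose synthases, -0.75 for accessory proteins, -0.56 for xylan and -0.29 for monolignols. On all counts it was -0.58, -0.74, -0.62 and -0.27. These ratios had an SD over replicates of 0.69, 0.32, 0.19 and 0.28. When a replicate was left out, the ratio of cellulose synthases ran from -0.94 (without replicate 1) to -0.30 (without replicate 2), and that of monolignols from -0.41 (without replicate 2) to -0.14 (without replicate 3). Accessory proteins ran from -0.88 to -0.60 and xylan from -0.67 to -0.48. With TMM-scaled counts of the tested members alone, the ratio was -1.02 for cellulose synthases and -0.80 for accessory proteins, each from 1 gene. For monolignols it was -0.07, from 3 genes. In Region 2 the 4 lists took 0.147% ± 0.050, 0.180% ± 0.043, 0.150% ± 0.069 and 1.35% ± 0.059 (SD, n = 3). For these 4 lists the means of Regions 2 and 3 were below that of Region 1, and for cellulose synthases Region 2 had the lowest mean.

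The same contrast of regions in tension wood, in other libraries, called 4 of 1171 genes (0.342%). The gene called in normal wood was not among them: Potri.016G104300.v4.1 had 982.8, 805.7 and 920 CPM in Region 1 and 979, 2561 and 1368 CPM in Region 3 of tension wood (replicates 1, 2 and 3). The 3 libraries of Region 1 were close to each other, and the Region 3 values rest on 27, 23 and 16 counts. Its log2 fold change in tension wood alone was 0.73 (edgeR adjusted p = 0.511). Over the 102 genes tested in both woods, the log2 fold changes of normal and of tension wood had a Pearson correlation of 0.05 (Spearman 0.04), and 55 had the same sign. These are descriptions across genes, with no library in common, and noise in both sets lowers them.

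Whether the regional change itself differs between the woods was tested over all 18 libraries and depended on the scaling, the filter and the replicates. With TMM scaling, 49 of 573 genes (8.55%) differed, all with a lower change in tension wood, but the median difference of all 573 genes was -1.34 on the log2 scale. The TMM factors ran from 1.36 to 1.43 in normal libraries, from 0.444 to 0.506 in Region 1 and from 0.834 to 1.54 in Region 3 of tension wood. Scaled by library totals, the median difference was -0.09 and 3 genes differed, all with a higher change in tension wood, and 0 genes were called under both scalings. Potri.016G104300.v4.1 was among those 3, with a difference of 1.62 (SE 0.35, edgeR adjusted p = 0.0021), from -0.93 in normal to 0.69 in tension wood. With TMM its difference was 0.29 (SE 0.46, edgeR adjusted p = 0.696), which is 1.63 above the median of all genes. Each wood has its own table, so wood, preparation and sequencing cannot be told apart.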

How the data were processed

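The authors deposited raw counts per gene, 1 column per library, without normalization. The submitters' processing notes name UMI-tools, STAR and featureCounts and no version or setting. The kit tags the 3' ends of transcripts, per the labels' protocols. Genome build, use of strand and whether counts are reads or molecules are not given in the sources used here; near-identical genes may share counts. All columns matched a label.

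Counts of the 9 normal libraries were fitted with edgeR 4.0.16 in R 4.3.3: TMM factors, filterByExpr at a minimum count of 10, a quasi-likelihood fit with region and biological replicate (tied to the regions by the labels, block set for this comparison), and Benjamini-Hochberg adjustment over 318 genes at a threshold of 0.05. Deviations of same-numbered libraries of Regions 1 and 3 from their region means had correlations across genes between -0.01 and 0.07. Nothing shows that replicates came from separate trees, so p-values measure the spread between these pools. That spread was mostly shared across the tested genes (prior degrees of freedom 146), so the own spread of a gene weighs little. Intervals are the log2 fold change ± the t quantile times the SE, taken from the F statistic. CPM use all counts of a library. Signs per replicate use TMM-scaled counts with 0.5 added. Lists are described without tests.

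Named were every called gene, the first 2 not called in each direction by p with the same sign in all replicates, and list members. Lists rest on recalled identifiers. Members and lists were chosen with earlier results of these data known. The test was checked on simulated counts without replicate effects. The changes planted there were larger than any estimated in the tested genes, so the check does not cover changes of the size seen here. Alternatives were DESeq2 1.42.0, other scalings and filters, thinning, no block, 6 libraries, and leaving out each replicate.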

Additional observations from a re-analysis of the deposited data

Results flagged for a closer look

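The test of the difference between normal and tension wood over 18 libraries picked out 7 of the genes named, each under 1 scaling only, and 0 of all genes tested passed under both. Potri.016G104300.v4.1 passed with scaling by library totals, where the change was higher in tension wood by 1.62 on the log2 scale (edgeR adjusted p = 0.0021). The other 6 passed with TMM, all with a lower change in tension wood. Their differences were -2.92 for Potri.002G105600.v4.1, -1.27 for Potri.006G136700.v4.1, -1.49 for Potri.019G123200.v4.1, -1.44 for Potri.009G099800.v4.1, -1.52 for Potri.009G095800.v4.1 and -1.64 for Potri.010G193100.v4.1 (edgeR adjusted p between 0.010 and 0.046). The median over all 573 genes was -1.34. With library totals their differences were, in the same order, -1.63, 0.10, -0.17, -0.10, -0.15 and -0.29, and none of the 6 passed (edgeR adjusted p between 0.734 and 0.944).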

How the results depend on the processing

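The count of 1 called gene went to 0 in DESeq2, with no replicate block, with the 6 libraries of Regions 1 and 3, with median-ratio size factors, with a minimum count of 3, with no filter and when thinned; it was 1 with library totals and from 0 to 1 when a replicate was left out. Potri.016G104300.v4.1 kept a negative log2 fold change under all 11 alternatives run, with adjusted p from 0.028 to 0.638. The paired analysis, with the replicate block, is the one reported. Of 147 values of the 14 named genes under alternatives, 135 kept direction and side of the threshold. That count says little about stability, because all genes but the called one started at an adjusted p of 0.482 or more. The called gene lost its call in 9 of its 11 alternatives. Reversed were Potri.019G123200.v4.1 (-0.18 thinned, and -0.16 to 0.40 when a replicate was left out, lowest without replicate 1) and Potri.009G095800.v4.1 (-0.17 to 0.21 when a replicate was left out, highest without replicate 1); the cause was not tested. All 46 alternative list ratios moved by less than the SD over replicates, and 5 changed sign. That yardstick is wide with 3 replicates, so it does not show that the ratios are stable. The ratio of cell death and proteases, for example, went from -0.25 to 0.67 without replicate 3, within an SD of 1.25. The 49 differences between woods, all lower in tension wood, became 47 with no replicate block, again all lower. With a minimum count of 3, and also with library totals, there were 3, all higher in tension wood. Thinned libraries gave 0 (added after seeing the data). Leaving out replicate 1, 2 or 3 of both woods gave 32 and 2 lower and 1 higher, in that order. The median difference was 0.36 with a minimum count of 3 and 0.08 without replicate 3, against -1.34 in the main fit. Of the 318 intervals, 256 reach a change of 1 on the log2 scale. How much of this width comes from depth was not tested.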
